A study of Homo sapiens with 6 samples.

Results

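The genes described here are the transcriptional coactivators YAP1 and WWTR1 (TAZ), their DNA-binding partners TEAD1 and TEAD4, the matricellular genes CCN1 (CYR61), CCN2 (CTGF) and CCN3 (NOV), and the YAP-responsive genes ANKRD1, AMOTL2 and AXL. Members were the probe sets annotated with 1 of these gene symbols alone, older aliases included. The rule was met by 16 of 22215 tested probe sets, which measured all 10 of these genes among the 11963 genes on the array with a symbol of their own. U87 cells, a human glioblastoma line, were grown for 16 h in DMEM with 10% serum and glutamine. The IRE1dn group was the clone labelled U87 IRE1.NCK DN, which expresses a dominant negative transgene of IRE1alpha, a sensor of endoplasmic reticulum stress encoded by ERN1. The ctrl group was U87 cells transfected with the empty plasmid, labelled in the plural as clones. Each group had 3 samples of total RNA, 1 per Affymetrix array. Nothing in the labels ties the replicates to separate cultures, and p-values therefore cover the variation among these samples alone, part of which may be technical. With 1 clone named for IRE1dn, an effect of the transgene and a property of that clone cannot be told apart. The comparison was made to identify transcripts related to invasion and angiogenesis.

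YAP and TAZ bind no DNA themselves. They enter the nucleus, attach to TEAD factors and switch on genes such as CCN1, CCN2, ANKRD1 and AMOTL2. The kinases of the Hippo pathway phosphorylate YAP and TAZ and hold them in the cytoplasm, a step at the protein level that a transcript array does not measure. CCN proteins are secreted into the matrix, where CCN1 and CCN2 bind integrins and act in adhesion, angiogenesis and scarring. CCN3 is a family member with growth-restraining effects in several cell types. AXL is a receptor tyrosine kinase for the ligand GAS6 and is linked to invasion in glioma.

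The promoter of CCN2 is shown because CCN2 had the largest change of the TEAD-responsive members, and that of ANKRD1 because it carries the same motif while its signal stayed near the bottom of the scale. Both are RefSeq windows of build GRCh38.p14 on the minus strand, 250 bases before to 50 bases after the gene's start, at chr6:131951323-131951622 for CCN2 and chr10:90921038-90921337 for ANKRD1. Capitals mark GGAATG, the core letters of the TEAD motif.
CCN2: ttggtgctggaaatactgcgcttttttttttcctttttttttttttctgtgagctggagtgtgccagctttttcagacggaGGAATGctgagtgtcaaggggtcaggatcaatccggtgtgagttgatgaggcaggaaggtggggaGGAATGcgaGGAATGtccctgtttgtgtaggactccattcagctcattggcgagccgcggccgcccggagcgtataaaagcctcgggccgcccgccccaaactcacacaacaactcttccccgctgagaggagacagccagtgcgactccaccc
ANKRD1: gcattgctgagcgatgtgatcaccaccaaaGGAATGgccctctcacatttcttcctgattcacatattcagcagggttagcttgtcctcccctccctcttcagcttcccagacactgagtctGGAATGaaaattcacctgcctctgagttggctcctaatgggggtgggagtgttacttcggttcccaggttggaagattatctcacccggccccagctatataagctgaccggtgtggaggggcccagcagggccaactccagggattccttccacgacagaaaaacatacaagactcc

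The CCN2 window held 3 matches, with first bases at -169, -104 and -95 from the start site. ANKRD1 held 2, at -220 and -128, and YAP1 held 1, at -162. The promoters of AMOTL2, WWTR1 and AXL held no match. These 6 members were the ones searched, for GGAATG or its reverse complement CATTCC. At least 1 match was found in 14.0% of 35116 promoter windows of this length, and 2 or more in 1.37%. The AP-1 motif TGANTCA, searched as 1 pattern that reads the same on both strands, occurred once in the ANKRD1 window and in none of the other 5, against 7.71% of all windows. The CArG box of serum response factor was in none of the 6 and in 1.29% of all windows. A match is a description of letters and not of binding.

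Signals were linear intensities that the authors had scaled to the same trimmed mean on every array. Array medians were 18.45 to 21.03 units. Correlations of log2 signals were 0.974 to 0.979 within IRE1dn, 0.959 to 0.967 within ctrl and 0.93 to 0.951 between groups. IRE1dn array 3 stood apart in technical measures, with an ACTB 3′ to 5′ signal ratio of 1.64, against 1.09 to 1.21 on the other 5 arrays, and hybridisation spike-ins at 1.88 times the ctrl mean. For the members, and for the brightest probe set of each called pathway gene, calls that ended without it are named beside the result. Calls of XBP1, of cell type markers and of the second CCN4 and GAS6 probe sets were not examined without it. The ERN1 probe set measured 11.1 ± 1.58 units in IRE1dn and 12.3 ± 1.53 in ctrl (SD, n = 3 each; limma adjusted p = 0.848) and need not lie within the transgene, so it does not check the labels. The transcript of XBP1, the splicing substrate of IRE1alpha, fell to 122.7 ± 8.97 units in IRE1dn, against 232.3 ± 31.3 in ctrl (SD, n = 3 each; limma adjusted p = 0.00697). In the brightest probe set of each glioma marker, VIM and CD44 had signals of 1450.4 units or more on every array, while the astrocyte markers GFAP and S100B had 1.9 units or less on every array. The progenitor markers were dim, NES at 9.52 to 44.9 units and SOX2 at 1.65 to 8.28 units over the arrays.

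Of the 16 member probe sets, 5 were higher and 2 lower in IRE1dn cells at a limma adjusted p under 0.05, adjusted over all 22215 probe sets. Over all probe sets, 15.2% passed the same threshold, 8.15% higher and 7.05% lower. That share includes dim probe sets. Above the 40th percentile of mean log2 signal, fitted alone, 3876 of 13329 probe sets passed. Of the 15 member probe sets there, 5 were higher and 2 lower. In the fit of all probe sets, the 5 higher members became 2 without IRE1dn array 1 or 2. They became 3 without IRE1dn array 3 or ctrl array 1, while 2 were lower whichever array was left out. Calls over all probe sets numbered 1363 without IRE1dn array 2, 1510 without IRE1dn array 3 and 2194 without IRE1dn array 1, in place of 3377. By gene, CCN1, CCN2, AXL and TEAD1 were higher, CCN3 was lower, and AMOTL2, ANKRD1, YAP1, WWTR1 and TEAD4 had no probe set past the threshold. The arrays of the groups did not overlap for 10 member probe sets, against 33.5% of all probe sets, dim ones included. No such share was taken for brighter probe sets alone, and several of the 10 measure the same gene. The median change was 0.14 over the member probe sets and 0.03 over all, on the log2(signal + 1.75) scale used for every change below. Changes are IRE1dn minus ctrl, and 1.75 is the 20th percentile of all values, which makes the changes of dim probe sets smaller than their signal ratios. In bulk RNA, fewer cells with a transcript and less of it per cell cannot be told apart.

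**Figure D1:**
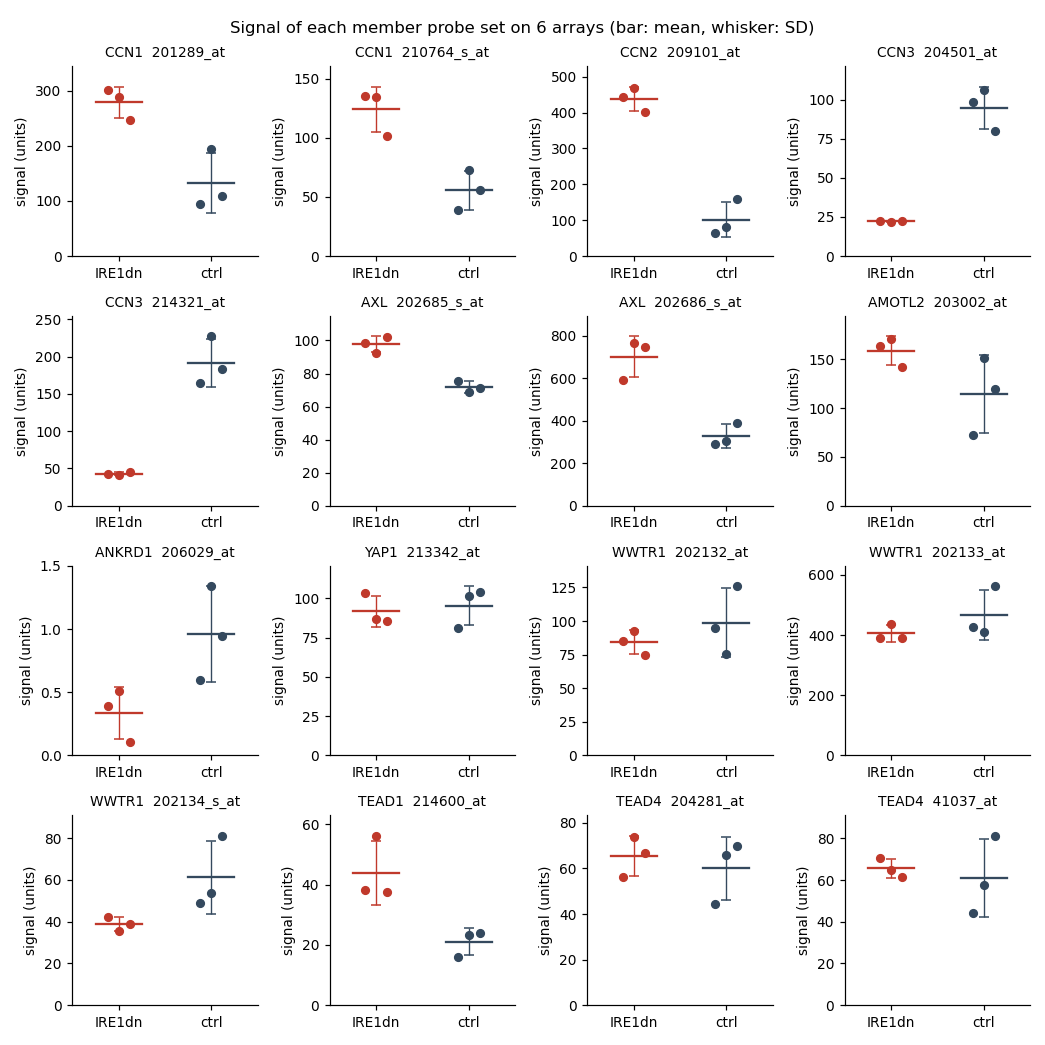
Signal in units (linear axis from 0) of each of the 16 member probe sets on 3 IRE1dn arrays (left, red) and 3 ctrl arrays (right, dark blue), with a bar at the mean and a whisker of 1 SD. CCN1, CCN2, TEAD1 and both AXL probe sets lay higher on every IRE1dn array, both CCN3 probe sets lay lower, and YAP1 and TEAD4 overlapped between groups.

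CCN2, the connective tissue growth factor that promotes matrix deposition, showed the largest increase of the members. Its probe set 209101_at gave 443.2, 469.5 and 401.4 units in IRE1dn cells, against 65.1, 82.4 and 158.2 units in ctrl cells. The 3 IRE1dn arrays lay close together and all above the highest ctrl array, which was array 3. The means were 438.0 ± 34.3 units in IRE1dn and 101.9 ± 49.5 in ctrl (SD, n = 3 each), a ratio of 4.3. On the log2 scale CCN2 rose by 2.18 (SE 0.29; limma adjusted p = 0.00164), and 99.0% of all probe sets had a smaller change. The call held in all 16 alternative settings, IRE1dn array 3 left out among them, with changes of 1.92 to 2.55.

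CCN1, a secreted integrin ligand with angiogenic activity, was measured by 2 probe sets that moved alike. Probe set 201289_at gave 300.7, 289.1 and 247.3 units in IRE1dn cells, against 94.0, 194.7 and 109.0 units in ctrl cells. Here ctrl array 2, and not array 3 as for CCN2, was the highest ctrl array, and it still lay below every IRE1dn array. Its change was 1.13 (SE 0.26; limma adjusted p = 0.0175). Probe set 210764_s_at gave 135.7, 134.4 and 101.8 units in IRE1dn cells, against 39.2, 72.5 and 55.5 units in ctrl cells. It rose by 1.16 (SE 0.25; limma adjusted p = 0.0141). Both calls depended on single arrays, and the size moved with the ctrl array left out. Without ctrl array 1 the changes were 0.92 for 201289_at and 0.94 for 210764_s_at. Without ctrl array 2 they were 1.44 and 1.36. For 201289_at the adjusted p was 0.0688, 0.0785 and 0.057 without IRE1dn array 1, 2 or 3, and 0.0502 without ctrl array 1, with changes of 1.08, 1.10, 1.22 and 0.92. For 210764_s_at it was 0.0611 without IRE1dn array 1 and 0.0759 without IRE1dn array 2.

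The change of CCN2 exceeded that of CCN1 (209101_at minus 201289_at) by 1.05 on the log2 scale. Taken as the within-array difference of the pair, this gave an exact two-sided permutation p = 0.1, the smallest that 3 against 3 arrays allow, and 0.175 after adjustment over the 7 pairs of probe sets compared. With 3 arrays a group this test cannot pass 0.05 whatever the values.

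CCN3 went the other way, and both of its probe sets passed the threshold. Probe set 214321_at gave 42.5, 40.8 and 44.9 units in IRE1dn cells, against 165.1, 227.1 and 183.0 units in ctrl cells. The groups were far apart, and the 3 IRE1dn arrays differed by less than the ctrl arrays did. The change was -2.11 (SE 0.19; limma adjusted p = 0.000277), and 99.1% of all probe sets had a larger change. Probe set 204501_at gave 22.3, 21.6 and 22.5 units in IRE1dn cells, against 98.5, 106.2 and 80.1 units in ctrl cells. It fell by 2.01 on the log2 scale (SE 0.22; limma adjusted p = 0.000644). These were the smallest adjusted p-values among the members, and both calls held in every alternative in which the probe set was tested, with changes of -2.21 to -1.53 over the pair. The change of 214321_at minus that of 204501_at was -0.10 (exact permutation p = 0.5).

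The other CCN family members, CCN4, CCN5 and CCN6, formed a list of their own. CCN4 (WISP1), a Wnt-induced secreted protein, was the 1 of the 3 past the threshold, where 17.9% of 11963 genes passed with 1 probe set each. It gave 123.2, 174.1 and 139.4 units in IRE1dn cells, against 23.0, 5.25 and 27.6 units in ctrl cells. Every IRE1dn array lay above every ctrl array, and CCN4 rose by 3.08 (SE 0.48; limma adjusted p = 0.00353), with its second probe set at 2.00 (SE 0.51; limma adjusted p = 0.028). CCN5 averaged 7.71 ± 2.96 units in IRE1dn and 5.49 ± 7.66 in ctrl (SD, n = 3 each), and CCN6 had at most 1.07 units on any array. At such signals neither transcript could be called present or absent.

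**Figure D2:**
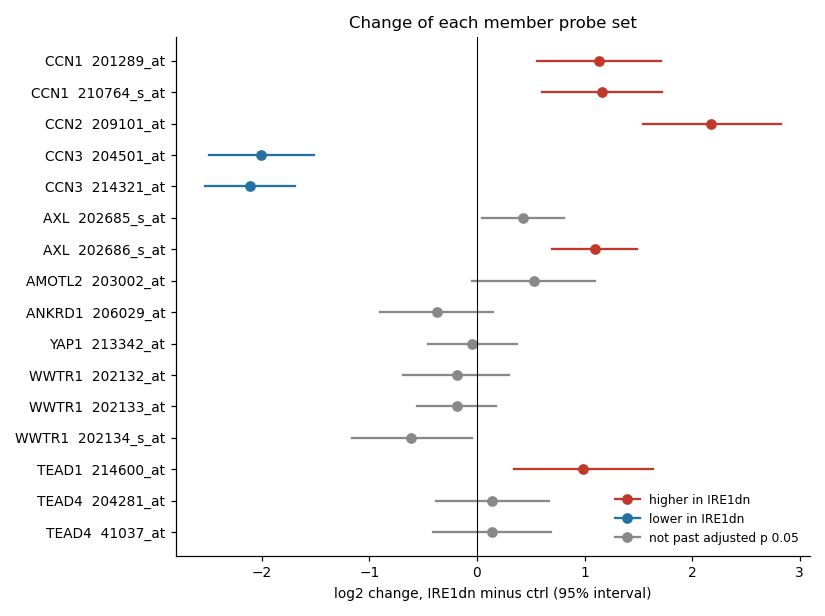
Log2 change, IRE1dn minus ctrl, of the 16 member probe sets with 95% intervals from the limma fit. CCN1, CCN2, TEAD1 and 1 AXL probe set were past the threshold above 0 (red), both CCN3 probe sets were past it below 0 (blue), and the intervals of YAP1, TEAD4, AMOTL2 and ANKRD1 held 0 (grey).

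AXL was measured by 2 probe sets that differed in the size of their change. Probe set 202686_s_at gave 591.2, 766.5 and 744.9 units in IRE1dn cells, against 288.5, 302.2 and 390.2 units in ctrl cells. The lowest IRE1dn array lay well above the highest ctrl array. The change was 1.10 (SE 0.18; limma adjusted p = 0.00404), and it passed in all 16 alternatives, with values of 1.02 to 1.23. Probe set 202685_s_at gave 98.4, 92.7 and 102.2 units in IRE1dn cells, against 75.7, 68.6 and 71.4 units in ctrl cells. The groups did not overlap here either, but the change of 0.43 (SE 0.17) missed the threshold (limma adjusted p = 0.124). The change of 202686_s_at minus that of 202685_s_at was 0.67 (exact permutation p = 0.1, the smallest possible; 0.175 after adjustment).

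Of the AXL ligands and related receptors, GAS6, PROS1, TYRO3 and MERTK, 1 of 4 genes passed the threshold, against 17.9% of all genes, so the count is no result about this group. GAS6, the ligand of AXL, gave 184.0, 150.9 and 187.8 units in IRE1dn cells, against 19.1, 32.4 and 97.1 units in ctrl cells. The ctrl arrays were widely spread, with array 3 the highest, and all lay below the IRE1dn arrays. GAS6 rose by 2.08 (SE 0.47; limma adjusted p = 0.017), and its second probe set by 2.97 (SE 0.78; limma adjusted p = 0.0325). The first call ended without any IRE1dn array (limma adjusted p of 0.0569 to 0.0807) or without ctrl array 2 (0.0531), and also without the intensity trend (0.0524). PROS1, a ligand of TYRO3 and MERTK, changed by 0.14 (95% interval -0.70 to 0.98), TYRO3 by -0.01 and MERTK by 0.17, none past the threshold.

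AMOTL2, an angiomotin-family scaffold that binds YAP and is itself a YAP target, gave 163.2, 170.7 and 142.3 units in IRE1dn cells, against 72.4, 151.6 and 119.1 units in ctrl cells. The groups overlapped through ctrl array 2. The change of 0.53 (SE 0.26; 95% interval -0.05 to 1.10) missed the threshold (limma adjusted p = 0.216), and it was 0.23 without ctrl array 1. ANKRD1, a nuclear ankyrin-repeat cofactor and a widely used YAP reporter, had 0.393, 0.51 and 0.106 units in IRE1dn cells and 0.594, 1.34 and 0.944 units in ctrl cells. All 6 values were below the pseudocount of 1.75, so its change of -0.37 (SE 0.23; limma adjusted p = 0.343) carries no information on direction. ANKRD1 was the 1 member probe set of 16 below the 40th percentile of mean log2 signal, equal to 7.55 units.

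The coactivators themselves were not called changed. YAP1 had 103.2, 86.8 and 85.5 units in IRE1dn cells and 81.1, 101.1 and 103.7 units in ctrl cells. The groups overlapped, and the change was -0.05 (SE 0.18; 95% interval -0.46 to 0.37; limma adjusted p = 0.902). For WWTR1, which encodes TAZ, probe set 202133_at gave 388.6, 436.5 and 391.3 units in IRE1dn cells and 427.7, 409.0 and 562.7 units in ctrl cells. Its change was -0.19 (95% interval -0.56 to 0.18; limma adjusted p = 0.513). Probe set 202132_at gave 85.3, 92.8 and 75.1 units in IRE1dn cells and 94.5, 75.2 and 126.0 units in ctrl cells. Both of these overlapped between groups, and the change of 202132_at was also -0.19 (95% interval -0.69 to 0.30; limma adjusted p = 0.627). Probe set 202134_s_at gave 42.0, 35.4 and 38.8 units in IRE1dn cells, against 48.7, 53.8 and 81.1 units in ctrl cells. These groups did not overlap, yet the change of -0.61 (SE 0.25) missed the threshold (limma adjusted p = 0.144). Its 95% interval, -1.16 to -0.05, left out 0 but is not adjusted for the number of probe sets. The change of 202134_s_at minus that of 202133_at was -0.42 (exact permutation p = 0.1, the smallest possible; 0.175 after adjustment). Minus that of 202132_at it was -0.41 (exact permutation p = 0.2). No WWTR1 probe set passed in any alternative. The intervals leave room for moderate changes, so they do not show that the 2 transcripts were equal in both groups.

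Among the DNA-binding partners, TEAD1 was higher by a narrow margin and TEAD4 was not called. TEAD1 gave 38.1, 56.2 and 37.4 units in IRE1dn cells, against 16.0, 23.4 and 23.9 units in ctrl cells. No array overlapped, and TEAD1 rose by 0.99 (SE 0.29; limma adjusted p = 0.0486). That call was lost in 11 of the 15 alternatives in which TEAD1 was tested, including the omission of any single array (limma adjusted p of 0.0506 to 0.219) and 2 other scalings, quantile normalization (0.0638) and equal medians (0.0609). The change stayed between 0.68 and 1.09. TEAD4 probe set 204281_at gave 56.4, 73.8 and 66.6 units in IRE1dn cells, against 44.3, 65.9 and 69.8 units in ctrl cells, and the groups overlapped. Probe set 41037_at gave 70.5, 65.0 and 61.5 units in IRE1dn cells and 44.4, 57.7 and 81.3 units in ctrl cells, with the IRE1dn arrays inside the ctrl range. Both gave a change of 0.14, with 95% intervals of -0.38 to 0.67 and -0.41 to 0.69. The TEAD1 change minus that of TEAD4 204281_at was 0.85 (exact permutation p = 0.1, the smallest possible; 0.175 after adjustment).

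Of 5 other TEAD factors and TEAD-binding cofactors listed, 4 were measured, and 2 of these rose and none fell, where 9.2% of 11963 genes rose and 8.67% fell. The median change was 1.05, against 0.02 over all genes. Of the 4, 3 lay above the 40th percentile of signal, where 3876 of 13329 probe sets were called. With 1 probe set per gene above that percentile, 2468 of 7178 genes were called in either direction. VGLL3, a vestigial-like cofactor that binds TEAD, averaged 130.7 ± 13.5 units in IRE1dn and 24.2 ± 5.19 in ctrl (SD, n = 3 each). The groups were separated by a wide gap, and VGLL3 rose by 2.36 (SE 0.22; limma adjusted p = 0.000366). TEAD3 gave 19.0, 22.8 and 24.3 units in IRE1dn cells, against 8.87, 10.1 and 9.17 units in ctrl cells. It rose by 1.09 (SE 0.31; limma adjusted p = 0.0449), and this call was lost on leaving out any single array (0.0706 to 0.161) and under quantile normalization (0.0563) and equal medians (0.0629). TEAD3 changed by 0.58 with a pseudocount of 16. VGLL1 (1.02) and VGLL4 (0.41) did not pass, and TEAD2 was not analysed here.

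For the Hippo kinases and their upstream regulators, 16 of 21 listed genes were measured, and LATS2, MOB1B, FRMD6, AJUBA and AMOTL1 were not analysed here. Of the 16, 4 rose, none fell and 12 did not pass, where 9.2% of genes rose and 8.67% fell at large. The median change was 0.42. Of the 16, 13 lay above the 40th percentile of signal, where 3876 of 13329 probe sets were called. With 1 probe set per gene above that percentile, 2468 of 7178 genes were called in either direction. The count is therefore no result about this list. STK38, an NDR-family kinase related to the LATS kinases, gave 247.3, 214.4 and 262.3 units in IRE1dn cells, against 68.6, 62.5 and 66.9 units in ctrl cells, and rose by 1.84 (SE 0.16; limma adjusted p = 0.000277). PTPN14, a phosphatase that binds YAP and is counted among its targets, rose by 1.89 (SE 0.30; limma adjusted p = 0.00388). NF2, the membrane-linked tumour suppressor merlin, rose by 1.38 in its brightest probe set (SE 0.26; limma adjusted p = 0.0082), and the other 6 of its 7 probe sets were positive in value without passing. The NF2 call was lost without IRE1dn array 3 (0.0527). WWC1, the scaffold KIBRA, rose by 1.13 (SE 0.32; limma adjusted p = 0.0448), was positive in 1 of its 2 probe sets, and was no longer called without any 1 of 5 arrays (0.0958 to 0.146), or under quantile normalization (0.0539) or equal medians (0.0527). WWC1 changed by 0.69 with a pseudocount of 16. Named after their values were seen, the core kinase STK3 (MST2) changed by -0.01, STK4 by 0.25 and the kinase cofactor MOB1A by 0.12. SAV1 changed by 1.08 (SE 0.37; limma adjusted p = 0.0839) and LATS1 by 0.90 (SE 0.40; limma adjusted p = 0.18), neither past the threshold. The groups did not overlap for SAV1 and LATS1, as for 33.5% of all probe sets. LATS1 had 9.4 units or less on every array.

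**Figure D3:**
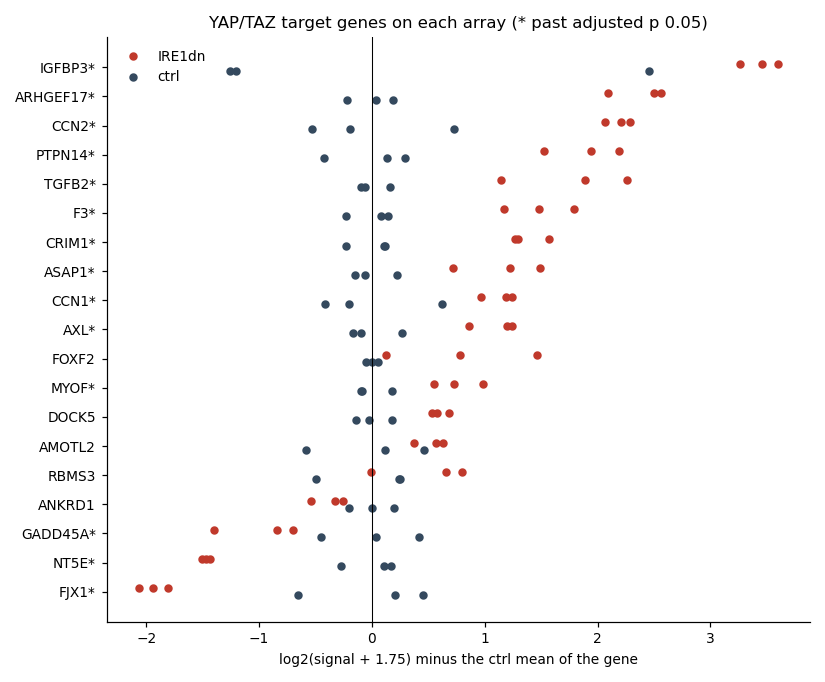
Log2(signal + 1.75) of 19 YAP/TAZ target genes on each IRE1dn array (red, upper points) and ctrl array (dark blue, lower points), minus the ctrl mean of that gene, ordered by change. 11 genes were higher and 3 lower past the threshold (asterisk), and the ctrl arrays of IGFBP3 lay far apart.

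A 22-gene list of YAP/TAZ targets from cancer studies, which includes CCN1, CCN2, ANKRD1, AMOTL2 and AXL, had 19 measured genes, with LATS2, CCDC80 and NUAK2 not analysed here. Of these, 11 rose, 3 fell and 5 did not pass. Without the members, 8 of 14 rose, 3 fell and 3 did not pass, with a median change of 0.97. Over all 11963 genes, dim ones included, 9.2% rose and 8.67% fell. Among the genes above the 40th percentile of signal, fitted alone with 1 probe set each, 2468 of 7178 were called. In that fit 7 of the 11 targets tested rose and 3 fell. Leaving out IRE1dn array 2 gave 5 of the 14 higher and 2 lower, and leaving out IRE1dn array 3 gave 6 higher and 2 lower. Of the 8 genes tested above the 60th percentile of signal, 5 were higher and 3 lower, where 3132 of 8886 probe sets were called.

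IGFBP3, a secreted binding protein for insulin-like growth factors, had the largest change among these targets. It gave 1651.2, 1883.2 and 2082.7 units in IRE1dn cells, against 72.9, 70.2 and 942.1 units in ctrl cells, so ctrl array 3 stood far from the other two. IGFBP3 rose by 3.44 (SE 0.82; limma adjusted p = 0.0217), and the call was lost on leaving out any single array (0.0653 to 0.0919) other than ctrl array 3, without which the change was 4.67. It was also lost without the intensity trend (0.0634). ARHGEF17 rose by 2.39 (SE 0.36; limma adjusted p = 0.003) from dim signals, 15.8 ± 2.96 units in IRE1dn and 1.59 ± 0.464 in ctrl (SD, n = 3 each), and its size was 0.85 with a pseudocount of 16. PTPN14 is given above.

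The remaining targets past the threshold were named after their values were seen. TGFB2, a TGF-beta ligand, rose by 1.76 (SE 0.31), although 1 of its 4 probe sets was negative in value. F3, the coagulation initiator tissue factor, rose by 1.48 (SE 0.22), and CRIM1, a transmembrane protein that binds bone morphogenetic proteins, by 1.38 (SE 0.17). ASAP1 (1.15, SE 0.22) and MYOF (0.75, SE 0.17) rose as well, but without IRE1dn array 2 neither was called (0.0518 and 0.0749), and MYOF was not called without IRE1dn array 3 (0.063) or without the intensity trend (0.0684) either.

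Target genes did not all move one way. FJX1, a secreted protein of the four-jointed family, gave 90.3, 98.7 and 108.6 units in IRE1dn cells, against 243.1, 442.2 and 528.1 units in ctrl cells, and fell by 1.94 (SE 0.26; limma adjusted p = 0.00194). NT5E, the ectonucleotidase CD73 that makes extracellular adenosine, gave 496.3, 483.3 and 473.0 units in IRE1dn cells, against 1111.2, 1453.9 and 1511.1 units in ctrl cells. NT5E fell by 1.47 (SE 0.16; limma adjusted p = 0.000674). The stress-induced growth arrest gene GADD45A, at 220.3 ± 53.3 units in IRE1dn and 439.5 ± 129 in ctrl (SD, n = 3 each), fell by 0.98 (SE 0.25; limma adjusted p = 0.0312), and this call was lost without IRE1dn array 2 or 3 or ctrl array 2 or 3 (0.061 to 0.122), and without the intensity trend (0.0886). For FJX1, NT5E and GADD45A alike, every IRE1dn array lay below every ctrl array.

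Markers of fibroblasts and pericytes moved in the same contrast as the CCN genes. Of 6 listed markers, DCN, LUM, COL1A1 and PDGFRB rose, by 4.28, 5.02, 3.94 and 1.15, and THY1 and RGS5 did not pass. Over all 11963 genes, 9.2% rose and 8.67% fell. Among genes above the 40th percentile of signal, fitted alone, 2468 of 7178 were called in either direction. COL1A1 was positive in 3 of its 4 probe sets. The summed signal of the 6 was 3421.1 to 4177.5 units in IRE1dn and 122.7 to 476.6 in ctrl. In their brightest probe sets, THY1 had at most 9.64 units on any array and RGS5 at most 15.9. Their part in the changes of CCN1, CCN2, CCN3 and the target genes was not tested. Of the 7 glioma markers 1 passed, OLIG2, which fell by 1.74 and had at most 24.9 units on any array. Of the 5 epithelial markers 1 passed, EPCAM, which fell by 1.40 and had at most 11.3 units, and no endothelial or immune marker passed. Over all genes 17.9% passed in either direction, so the glioma and epithelial counts are no result about these markers. The 5 epithelial markers summed to 20.3 to 34.1 units in IRE1dn and 24.7 to 30.0 in ctrl. Endothelial markers, 4 in all, summed to 9.32 to 11.8 units in IRE1dn and 13.1 to 30.0 in ctrl, and the 3 immune markers measured to 5.81 to 16.8 in IRE1dn and 4.42 to 12.9 in ctrl.

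**Figure D4:**
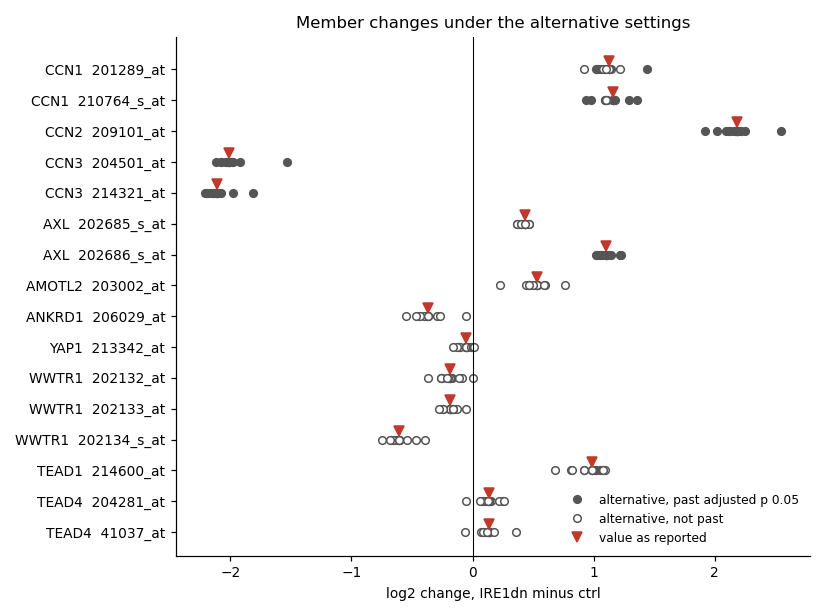
Log2 change, IRE1dn minus ctrl, of each member probe set as reported (red triangle) and under each alternative setting (circles, filled where the adjusted p was under 0.05). CCN2, CCN3 and AXL 202686_s_at were past the threshold in every setting, TEAD1 in few, and AMOTL2, YAP1, WWTR1 and TEAD4 in none.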

How the data were processed

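The authors deposited intensity values, linear signals per probe set, for 6 arrays. Per the submitters' processing notes the software was GCOS 1.2; how probe signals were summarised and background-corrected is not given in the sources used here. Intensities had a mean of 100.0 units per array after trimming 2% at each end, so a change shared by all transcripts would not be seen. Of 22277 rows, 62 were controls and left out. Of the rest, 19064 had 1 gene symbol, 1043 several and 2108 none listed, and 19052 were updated through gene identifiers to RefSeq symbols (GRCh38.p14 table).

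All 22215 probe sets were fitted in R 4.3.3 with limma 3.58.1 (lmFit, eBayes, intensity trend, no covariate, two-sided, Benjamini-Hochberg adjustment, threshold 0.05) on log2(signal + 1.75). Pathway genes used 1 probe set each, the brightest by mean log2 signal. Members and lists were chosen with earlier results of these data known. The text names every member, ERN1, XBP1, up to 4 genes with the largest changes per pathway list, all genes of pathway lists with 5 or fewer, and the 3 nearest profiles of CCN1 and CCN2; other pathway genes are marked. Markers of cell types were chosen for naming after their values were seen. The fit was tested on simulated data. Array number limits precision.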

Additional observations from a re-analysis of the deposited data

How the results depend on the processing

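Each count was recomputed with pseudocounts of 1 and 16, filters at the 40th and 60th percentile, quantile normalization, equal medians, no intensity trend, array weights, 1 probe set per gene, a replicate block, and 1 array fewer. For the pathway genes these were applied after the data were seen. Of the member probe sets, 5 were higher and 2 lower as reported. Without the intensity trend 3 were higher, and 2178 of all probe sets were called in place of 3377. With 1 probe set per gene 1 member was lower, since CCN3 then has 1 probe set. With the 60th percentile filter 5 of the other YAP/TAZ targets rose in place of 8, and 3 fell, with 8 tested. Leaving out 1 array gave 2 to 4 member probe sets higher and 2 lower, 1363 to 3439 probe sets called in all, and 5 to 8 other targets higher and 2 to 3 lower. With the replicate block 4 member probe sets were higher and 2 lower, TEAD1 being the one lost (limma adjusted p = 0.071), and the calls of TEAD3 (0.0946) and WWC1 (0.0731) ended too. Same-numbered arrays did not deviate together over all probe sets (correlations of their deviations from the group means of -0.08, 0.025 and -0.015). The labels state no pairing, and these correlations cannot exclude one. Without the intensity trend CCN1 201289_at had an adjusted p of 0.0601. Uncalled changes turned sign in 3 cases, TEAD4 to -0.05 and -0.06 without ctrl replicate 1 and YAP1 to 0.01 without ctrl replicate 3. Leaving out 1 array gave -0.05 to 0.26 and -0.06 to 0.36 for the TEAD4 pair and -0.16 to 0.01 for YAP1. No detection calls were used here, so signals near the 40th percentile level of 7.55 units cannot be called present.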

Other observations

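Profiles over the 6 arrays were compared as the root mean square difference of log2 signals, each centred on its own mean, over 7177 other genes above the 40th percentile of signal. The nearest to CCN1 was C6orf62 (difference 0.08), followed by SUPT16H, a subunit of the histone chaperone FACT (0.082), and BTBD3 (0.102). Each shared with CCN1 ctrl array 2 as the highest ctrl array and IRE1dn array 3 as the lowest IRE1dn array. The genes were picked for closeness over these same 6 arrays, so a shared order of arrays follows from the choice. C6orf62 gave 466.7, 460.6 and 355.0 units in IRE1dn cells, against 134.0, 264.6 and 155.3 in ctrl cells. Nearest to CCN2 were TRAM2, a translocation-associated protein used in collagen synthesis (0.156), DPYSL3 (0.176) and ZNF32 (0.179). TRAM2 gave 1268.3, 1485.4 and 1543.8 units in IRE1dn cells, against 199.3, 293.4 and 456.7 in ctrl cells. These likenesses rest on 6 arrays and are given without a test.

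Ctrl array 1 was the lowest ctrl array for 12 of the 16 member probe sets and for 35.2% of all probe sets, and the SD of log2 signals was larger in ctrl than in IRE1dn for 14 of the 16 and for 61.3% of all. Several members share a gene, so the 16 are not independent.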
